A study of Mus musculus with 2 samples.

Results

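Noncoding genes that give rise to transfer RNAs, spliceosomal RNAs, microRNAs and long noncoding RNAs have accessible chromatin at their ends, and the regions described here are those that both an ATAC-seq library of control fetal liver progenitors and one of Brd9 knockout progenitors called as open. They were selected on measured values: a region had to hold a peak of both deposited peak lists. Peaks of both lists that overlapped by at least 1 bp were merged on the autosomes. A merged region was kept where it lay within 1 kb of an end of a gene that is not protein coding and of no protein-coding gene, by the gene spans of RefSeq (assembly GRCm38.p6, the coordinates of mm10). Of 18023 shared autosomal regions, 1256 met the rule, or 6.97% (95% exact Clopper-Pearson interval 6.6 to 7.35), out of 28403 merged autosomal regions and 29076 on all chromosomes. Each region was assigned the noncoding gene whose end was nearest to the control summit, and it takes that gene's type. Presence in both lists was required, so presence is a description of these regions and no test is made of it.

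Cells were taken from mouse fetal liver at embryonic stage E14.5 on a C57BL/6 background and sorted as lineage-negative and c-Kit-positive, a gate that keeps blood stem and progenitor cells. The control library came from CD45.2(+) Brd9fl/fl cells (replicate 1) and the knockout library from CD45.2(+) Vav1-iCre Brd9fl/fl cells (replicate 2), with 150000 cells each, so both genotypes carry the floxed Brd9 alleles and only the knockout carries the Cre. Vav1 regulatory sequence drives the Cre in blood cells, so other cells of the liver would keep Brd9, whose protein carries a bromodomain and belongs to non-canonical BAF, a complex that remodels chromatin. The matings paired Brd9fl/fl males with Vav1-iCre Brd9fl/fl females, and the sources used here do not say how many embryos went into a library. There was 1 library per genotype and hence no replicate check: no p-value was computed, and every difference is one between these 2 libraries. In a bulk library, fewer cells with an open site and a less open site per cell cannot be told apart.

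Transfer RNA genes and several small structural RNA genes are short and are transcribed by RNA polymerase III, the tRNA genes from promoter elements inside the gene itself. Most spliceosomal snRNA genes are transcribed by RNA polymerase II from their own upstream elements, while most snoRNAs and many microRNAs are cut out of the transcripts of longer host genes. Long noncoding RNAs (lncRNAs) are transcribed by RNA polymerase II and often spliced like messenger RNA, and those named below include nuclear RNAs, imprinted transcripts and hosts of small RNAs.

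RefSeq start windows (from 250 bases before to 50 bases after an annotated gene start) were at hand for lncRNA genes. The windows of 4 lncRNA genes that lie wholly inside their regions are printed because results turn on these genes: Mir22hg, the microRNA host with the most reads; Malat1 and Kcnq1ot1, a nuclear and an imprinted lncRNA with fewer knockout reads; and Gm34948, among the regions with the lowest ratios. They read 5' to 3' on the gene's strand (mm10), and capitals mark matches to any of 12 motifs listed with the promoter results. Mir22hg (chr11:75461289-75461588, plus strand) held matches to GGGCGG, to CCAAT and to TGTGGT, Kcnq1ot1 (chr7:143296498-143296797, minus strand) to CCAAT only, and Gm34948 (chr2:103896217-103896516, minus strand) to TGANTCA only. The Malat1 window (chr19:5802623-5802922, minus strand) held none of the 12 and so has no capitals.
Mir22hg: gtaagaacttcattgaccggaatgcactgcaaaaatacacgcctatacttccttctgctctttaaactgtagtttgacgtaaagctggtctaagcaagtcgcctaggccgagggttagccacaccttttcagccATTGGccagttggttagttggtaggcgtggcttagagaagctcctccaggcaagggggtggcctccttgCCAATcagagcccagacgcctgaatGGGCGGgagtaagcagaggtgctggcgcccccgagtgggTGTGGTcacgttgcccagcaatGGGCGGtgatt
Malat1: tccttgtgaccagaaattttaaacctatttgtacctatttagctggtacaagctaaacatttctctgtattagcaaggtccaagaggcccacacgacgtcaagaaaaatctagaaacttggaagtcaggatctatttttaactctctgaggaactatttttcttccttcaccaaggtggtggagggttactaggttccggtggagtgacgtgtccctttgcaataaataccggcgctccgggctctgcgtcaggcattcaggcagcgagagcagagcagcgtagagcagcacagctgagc
Kcnq1ot1: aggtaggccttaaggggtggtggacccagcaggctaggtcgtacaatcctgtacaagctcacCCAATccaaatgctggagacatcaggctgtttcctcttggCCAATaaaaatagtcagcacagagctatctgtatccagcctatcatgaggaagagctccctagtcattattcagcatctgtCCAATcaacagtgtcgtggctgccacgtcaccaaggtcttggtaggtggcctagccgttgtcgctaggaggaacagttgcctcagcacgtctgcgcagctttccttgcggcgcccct
Gm34948: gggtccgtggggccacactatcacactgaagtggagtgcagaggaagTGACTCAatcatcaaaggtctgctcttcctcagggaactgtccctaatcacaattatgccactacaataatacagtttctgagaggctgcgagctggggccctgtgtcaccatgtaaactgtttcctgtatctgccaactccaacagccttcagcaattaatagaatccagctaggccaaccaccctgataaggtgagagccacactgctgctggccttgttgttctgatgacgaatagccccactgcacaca
For the microRNA genes, mature sequences are printed 5' to 3' from the RefSeq table, with the seed (bases 2 to 8, which pair with the target) in capitals. The 2 genes whose region had clearly fewer knockout reads are Mir153 and Mir7655, and 3 with more are Mir6546, Mir7240 and Mir3100; Mir17 and Mirlet7i are shown as members of well-known families whose interval held 1.
mmu-miR-153-3p: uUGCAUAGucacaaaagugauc
mmu-miR-7655-5p: cGGCCCACggagcuccuaaaga
mmu-miR-6546-3p: gAGCGAAGcccaagcgccaga
mmu-miR-7240-5p: uUGGAGAGgaccgccgucgga
mmu-miR-3100-5p: uUGGGAACggggugucuuuggga
mmu-miR-17-5p: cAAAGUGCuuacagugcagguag
mmu-let-7i-5p: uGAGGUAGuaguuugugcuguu
Of the 38 microRNA regions, 33 were at genes with an entry in the table. Their 54 mature sequences compared here carried 54 different seeds, so no seed family held more than 1 of them.

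The height of a peak is given as summit reads, the number of extended reads over its summit, which was recovered as a whole number from the deposited values of every peak. A scaled ratio sets a region's knockout summit reads over its control reads and divides by 0.64, which is the knockout's lowest local background (0.971 reads) over the control's (1.52 reads), so that 1 stands for equal height at equal depth. Their 95% intervals are exact conditional binomial intervals and cover counting error only. The control list held 25330 peaks with a median of 37 summit reads and the knockout list 22348 with a median of 28, so the knockout library was the shallower. Among genes chosen as markers, 6 of 8 progenitor genes (Kit, Tal1, Myb, Runx1, Lmo2 and Spi1) had a shared region at an end. So did 2 of 3 erythroid genes (Epor and Klf1). Gata1, the other erythroid gene, lies on the X chromosome and could not be scored, since only autosomes were used. Of 4 hepatocyte genes 1 had such a region (Apoa1), and of 2 stromal genes 1 (Col1a1). Of the 2 endothelial, 2 macrophage and 2 lymphoid genes none did, although Kdr, an endothelial gene, had 1 region in each list alone. The part of such other cells in the results was not tested.

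The regions at noncoding gene ends were lower than those at protein-coding gene ends but had about the same balance between genotypes. Their median was 51 control reads and 31 knockout reads over a median width of 963 bp. The 7620 shared regions at coding ends had medians of 107 and 66 reads and 1015 bp, and all shared autosomal regions had medians of 62 control reads and 963 bp. The median log2 scaled ratio was 0.04 at noncoding ends (95% interval of the median over regions 0.01 to 0.06, SD 0.49), 0.01 at coding ends (SD 0.37) and -0.0033 over all shared regions (SD 0.46). A ratio was computed for 1254 of the 1256; the other 2, Rn18s-rs5 and AY036118, exceeded 3000 reads. Counting alone would give an SD near 0.38 at noncoding ends and 0.29 at coding ends. Among regions with 60 to 250 control reads the SD was 0.41 at noncoding ends (counting 0.24) and 0.32 at coding ends (counting 0.22). It was 0.40 in shared regions inside genes and 0.42 in intergenic ones. A spread wider than at coding ends was thus not particular to noncoding ends. This range is set on control reads, by which the ratio divides, so it favours low ratios by an amount that can differ between sets. Within it the median log2 ratio was -0.09 over all shared regions and -0.05 at coding ends. Of the noncoding-end regions, 34.8% overlapped the span of a coding gene whose ends lay further off.

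**Figure D1:**
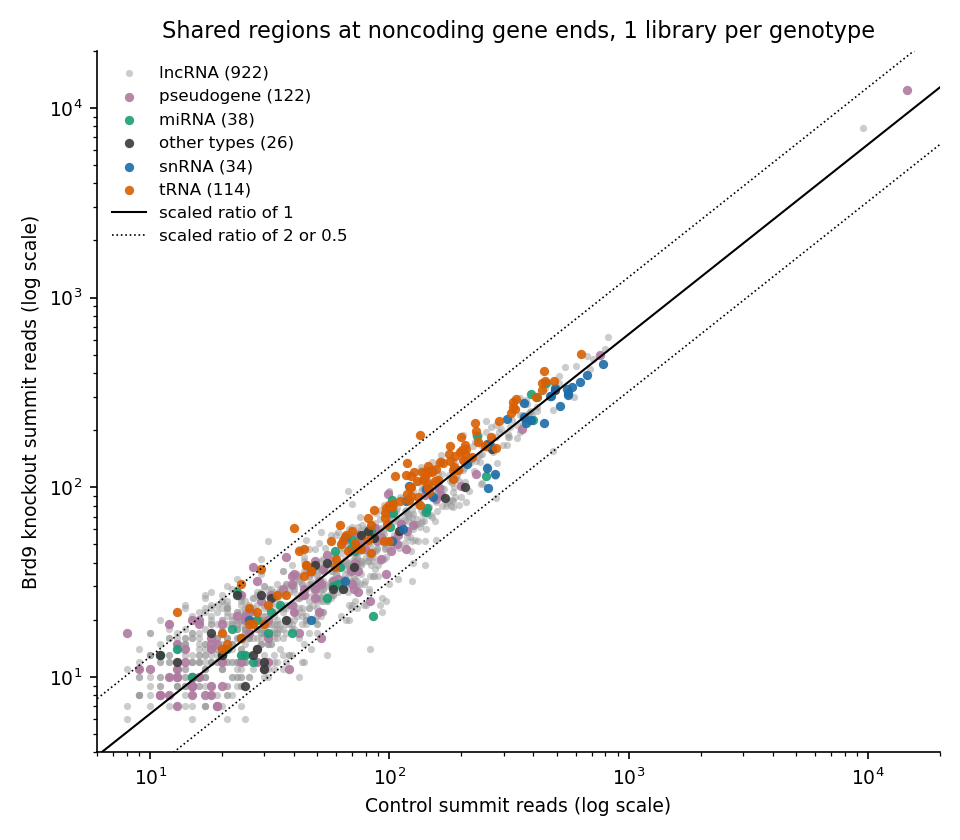
Summit reads of each of the 1256 regions in the control library (horizontal axis) and the Brd9 knockout library (vertical axis), both on log scales, with 1 point per region coloured by gene type. The solid line is a scaled ratio of 1 and the dotted lines are 2 and 0.5; tRNA regions lie mostly above the solid line and snRNA regions mostly below it, and the 2 points at the far right are the ribosomal RNA copies on chromosome 17.

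Few regions differed by a factor of 2 between the genotypes. The shares were larger than over all shared regions or at coding ends, but not than in shared intergenic regions. A scaled ratio of at least 2 was found for 43 noncoding-end regions (3.43%), and the share over all 18021 shared regions with a ratio was 2.4%. A ratio of 0.5 or less was found for 29 (2.31%), against 2.0% over all. The interval lay above 1 for 117 (9.33%, against 7.46% over all) and below 1 for 98 (7.81%, against 8.52% over all). Without the 114 tRNA regions the interval lay above 1 for 80 of 1140 (7.02%). At coding ends, 1.05% of regions reached a ratio of 2 and 0.696% had 0.5 or less. The shares were 3.28% and 3.55% in shared regions inside genes, and 5.05% and 3.35% in intergenic ones. Among regions with 60 to 250 control reads, a range that favours low ratios, 3.7% at noncoding ends had a ratio of 0.5 or less. The share was 1.89% over all shared regions, 0.527% at coding ends, 4.33% inside genes and 5.05% in intergenic regions. A ratio of at least 2 was found in that range for 0.436%, 0.0694%, 0%, 0.125% and 0.22% of these sets, in the same order. The 43 at or above 2 were low peaks, with a median of 14 control reads and 22 knockout reads, and the 29 at or below 0.5 were higher, with medians of 78 and 21. Since a region had to be called in both lists, its lowest values were 8 control and 6 knockout reads, and a low control peak could not have a low ratio.

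Because the rule used presence in both lists, the shares that follow describe these lists and test nothing. Of 1960 merged autosomal regions at noncoding ends alone, 64.1% were shared, 439 were in the control list alone and 265 in that of the knockout. At coding ends alone, 85.6% of 8907 regions were shared. Regions at tRNA genes had the highest share among the types with over 30 regions: 114 of 125, or 91.2%, with 5 found in control alone and 6 in knockout alone. The shares were 83.8% at transcribed pseudogenes (31 of 37), 77.3% at snRNA genes (34 of 44), 63.5% at lncRNA genes (922 of 1451), 58.5% at microRNA genes (38 of 65), 48.9% at other pseudogenes (91 of 186) and 30.4% at snoRNA genes (7 of 23). One-list regions were mostly low, with medians of 15 reads for control and 10 for knockout, but those at tRNA genes had medians of 41 and 15. In the control list alone, n-TLcaa2 had 74 reads and n-TStga2 68, and in the knockout list alone n-TDgtc13 had 51. One-list regions have no ratio, so the ratios given below leave them out. The remaining shared regions were spread over 8 further types, among them 6 T-cell receptor V segments, 6 genes typed as miscellaneous RNA and 2 antisense RNAs. V segments and the Tcrb locus encode T-cell receptor chains. RefSeq does not type them as protein coding, so the rule counted them here.

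**Figure D2:**
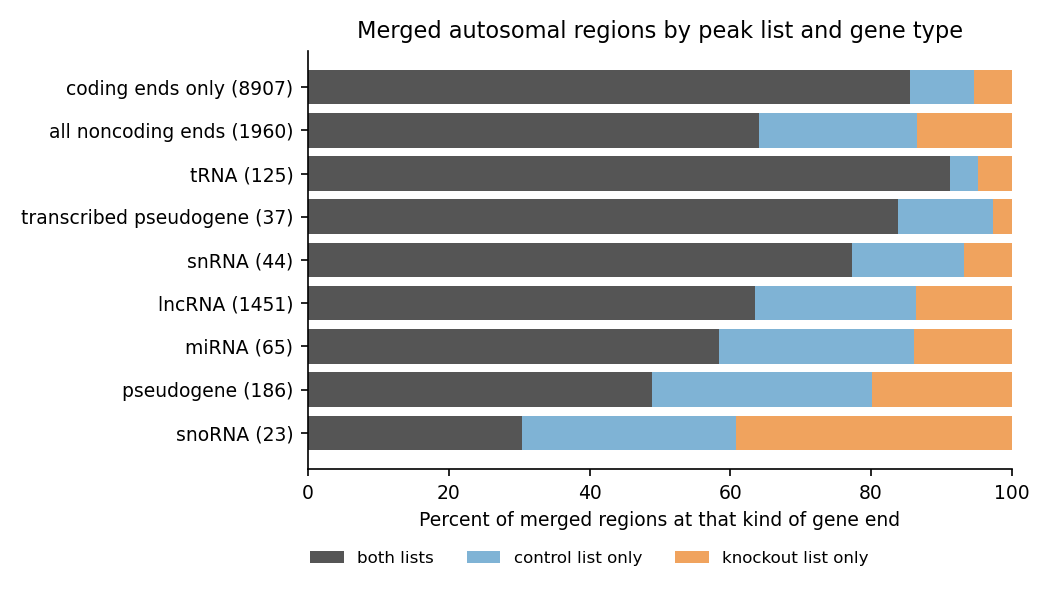
Percent of merged autosomal regions that held peaks of both lists, of the control list only or of the knockout list only, for each kind of gene end, with the number of regions in brackets. Regions at tRNA genes were shared in 91.2% of cases and those at snoRNA genes in 30.4%.

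Among the gene types with over 30 regions, tRNA genes had the highest median ratio of knockout over control. Their 114 regions had medians of 123 control and 99.5 knockout reads, and 105 of them (92.1%) had a scaled ratio above 1. The interval lay above 1 for 37 (32.5%; 7.46% over all shared regions) and below 1 for 0 (8.52% over all). The median log2 scaled ratio was 0.28 (0.26 to 0.32), a ratio of 1.21, and the SD was 0.28 where counting alone would give 0.25. This group was singled out after the values of all types had been seen. The deposited fold over local background had a median of 8.13 in control and 8.75 in knockout for these regions, and of 11 and 10.9 at coding ends. This fold holds a pseudocount of 1, so it too depends on depth and is not a check free of scaling.

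Ratios above 1 were found in most clusters, though not on every chromosome. The tRNA regions were within 45 clusters, split at gaps of over 1 Mb, and 40 of the 45 had a median log2 ratio above 0. A single region made up 35 of the 45. The 2 large clusters on chromosome 13 held 29 and 16 regions, with medians of 0.30 and 0.23. The 45 regions on chromosome 13 had a median of 0.27 and the 69 on other autosomes 0.28. Medians were below 0 on chromosomes 15 (-0.08, 1 region) and 8 (-0.09, 2 regions) and above 0 on the other autosomes with a tRNA region. On chromosome 17, 3 of 6 regions had a ratio above 1, and on chromosome 7, 3 of 5, with 0 intervals above 1 on either. Grouped by the amino acid that the nearest tRNA gene carries, all 20 groups had a median above 0, from 0.04 for the single cysteine region to 0.45 for the 8 glycine regions. The 42 anticodons at these regions come from a set of 391 annotated autosomal tRNA genes.

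Neighbouring open regions did not show the same lean. The 223 other shared regions within 100 kb of a tRNA region had a median log2 ratio of -0.06 (-0.11 to -0.01), with 15 intervals above 1 and 35 below. Regions that lay at both a tRNA end and a coding end, which the rule leaves out, had a median of 0.22 over 37 regions, with 32 ratios above 1, 13 intervals above 1 and 0 below. The 1351 shared regions at a coding end and another kind of noncoding end had a median of 0.02. Among regions with 60 to 250 control reads, the 73 tRNA regions had a median of 0.28 with 90.4% above 1, and all 7203 shared regions had a median of -0.09 with 39.5% above 1. At those read numbers tRNA regions were wider (median 1268 bp, against 1030 bp) and stood less far above local background in the control (median deposited fold 9.0, against 11.5). Ranked by summit reads among the shared regions, the median tRNA region stood at the 71.5th percentile in the control and the 78.8th in the knockout, and 107 of 114 ranked higher in the knockout.

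The highest tRNA region was at n-TYgta2, a tyrosine tRNA gene (chromosome 3, 19627900 to 19629335), with 635 control and 503 knockout reads and a ratio of 1.24 (1.10 to 1.39). The next, at n-THgtg5, a histidine tRNA gene on chromosome 2, had 486 and 361 reads (1.16, 1.01 to 1.33). At n-TLcaa3, a leucine tRNA gene on chromosome 11, the reads were 446 and 363 (1.27, 1.10 to 1.46). All 3 summits lay within 100 bp of the gene's end. The highest ratio, 2.64 (1.27 to 5.71), was at n-TNgtt4 on chromosome 3 with 13 and 22 reads, and its summit was 720 bp from the gene. Larger numbers stood behind n-TGtcc2 (chromosome 1, 171037039 to 171038667), a glycine tRNA gene with 134 control and 188 knockout reads and a ratio of 2.19 (1.75 to 2.76). The lowest ratio was 0.812 (0.569 to 1.15) at n-TTagt9 on chromosome 7, with 100 and 52 reads. Of the 114, 4 reached a ratio of 2 and 0 fell to 0.5. Over all 114, the median distance from control summit to gene end was 75 bp, and 76.3% of summits were within 200 bp. Many tRNA genes are near-identical copies, and the sources used here do not say how reads mapping to several places were treated; the part of such reads in these ratios was not tested.

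**Figure D3:**
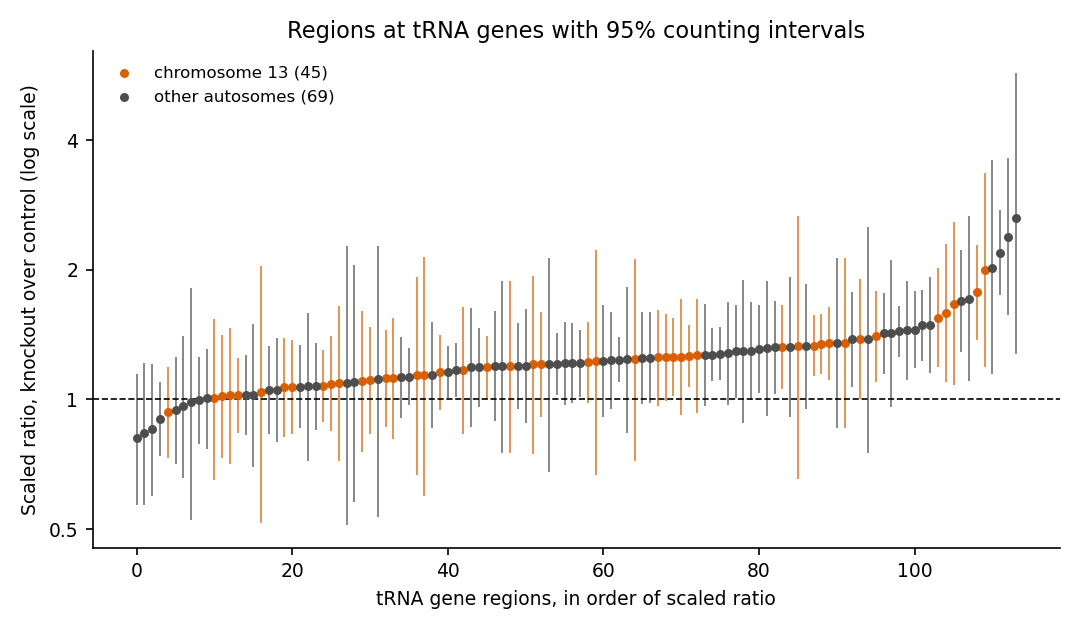
Scaled ratio of each of the 114 regions at tRNA genes (points) with its 95% counting interval (lines), in order of the ratio on a log scale, coloured by whether the region is on chromosome 13. The dashed line marks equal height at equal depth; 105 points lie above it, and no interval lies wholly below it.

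Regions at snRNA genes were high, and their median ratio was slightly below 1. The 34 regions had medians of 293 control and 193 knockout reads, and 70.6% of their summits were within 200 bp of the gene's end. Their median log2 ratio was -0.13 (-0.18 to 0.01, which holds 0), with 12 ratios above 1. The interval lay above 1 for 2 (5.88%, against 7.46% over all shared regions) and below 1 for 6 (17.6%, against 8.52%). Among regions with 60 to 250 control reads, the 9 snRNA regions had a median of -0.04, with 1 interval above 1 and 0 below. The median over all shared regions in that range was -0.09. Ranked by summit reads, the median of the 34 stood at the 91.5th percentile in the control and the 91.6th in the knockout, and 9 of the 34 ranked higher in the knockout. The highest was at Rnu2-10 (chromosome 11, 101657954 to 101659250), a gene of the U2 snRNA that recognises the branch point, with 779 and 449 reads and a ratio of 0.900 (0.800 to 1.01). Those at Rnu3b3 and Rnu3b4, genes of the U3 RNA that helps process ribosomal RNA, had 669 and 389 reads (0.908, 0.799 to 1.03) and 626 and 360 reads (0.898, 0.787 to 1.02). None of these 3 intervals left out 1.

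The 6 lower snRNA regions included Rnu1a1 (chromosome 11, 87422565 to 87423587), a gene of the U1 snRNA that recognises the 5' splice site, with 445 control and 217 knockout reads and a ratio of 0.762 (0.644 to 0.898). The lowest was at Gm23971 on chromosome 11, with 258 and 99 reads and a ratio of 0.599 (0.470 to 0.758), and Gm24950 some kilobases away had 276 and 118 reads (0.668, 0.534 to 0.831). Also on chromosome 11, Gm23444 had 519 and 267 reads (0.803) and Gm22068 557 and 308 (0.864). Gm22265 on chromosome 1 had 255 and 126 (0.772). Rnu1a1 and Gm22068 both lie within Tex14, so these lower regions were not all at separate loci. Of the 2 higher ones, Rn7sk (chromosome 9, 78175360 to 78176675), whose RNA holds the elongation factor P-TEFb inactive and which RNA polymerase III transcribes, had 365 and 279 reads and a ratio of 1.19 (1.02 to 1.40). The other was Gm23851, with 121 and 102 reads (1.32, 1.0 to 1.73) and a summit 950 bp from the gene. Copies of snRNA genes resemble each other too, so the caveat on reads that map to several places holds here as well.

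The other small structural RNA genes given here had ratios from 1.01 to 1.2, and only the interval of Rmrp left out 1. Rn7s2, a gene of the signal recognition particle RNA, had 493 control and 326 knockout reads (1.03, 0.895 to 1.19). Vaultrc5, which encodes a vault RNA, had 177 and 116 reads (1.02, 0.803 to 1.30), and Rny1, which encodes a Y RNA, had 76 and 56 (1.15, 0.800 to 1.65). Terc, the RNA template of telomerase, had 55 and 40 reads (1.14, 0.736 to 1.74), and Scarna2, a guide RNA of Cajal bodies, had 81 and 59 (1.14, 0.799 to 1.61). Of the 8 listed small structural RNA genes, 4 had a member region and 2 had a shared region that was also at a coding end. Rny3 had a region in the control list only, with 49 reads, and Rprl3 had none. The 2 at a coding end were Rmrp, the RNA of RNase MRP, with 517 and 397 reads (1.2, 1.05 to 1.37), and Rpph1, the RNA of RNase P, with 403 and 260 (1.01, 0.859 to 1.18). All 4 member regions and both of these had a ratio above 1.

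A pair of regions on chromosome 17 stood far above all others. They lie at Rn18s-rs5 (39843215 to 39846811), a copy of ribosomal RNA sequence typed as a pseudogene, and at AY036118 (39847430 to 39848680), a lncRNA gene next to it. The first had 14661 control and 12391 knockout summit reads and the second 9572 and 7840. Their deposited folds over local background were small, 2.69 and 2.70 for the first and 1.75 and 1.78 for the second. Reads from the many ribosomal DNA copies that the assembly does not separate could be placed here, which was not tested, and both regions were left out of medians and counts of ratios.

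**Figure D4:**
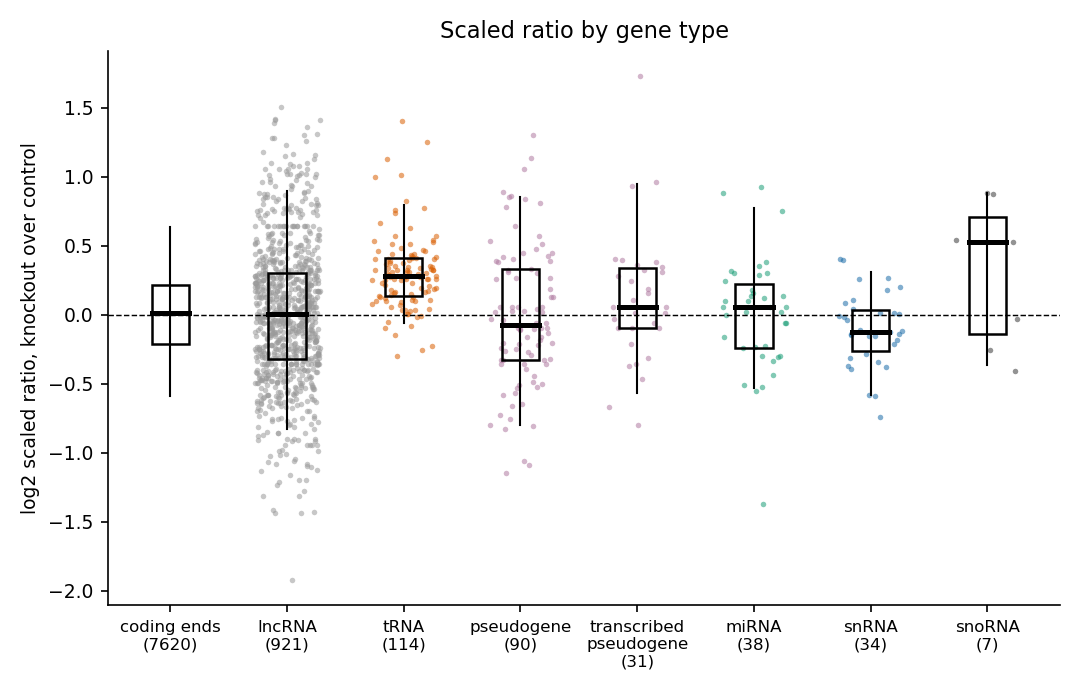
The log2 scaled ratio of every region by gene type (points), with the median (thick bar), the quartiles (box) and the 5th to 95th percentile (line); for coding ends only the box and line are drawn. The number of regions is in brackets. The tRNA box lies above 0, while the median of lncRNA regions is 0.01 and that of snRNA regions -0.13.

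The 922 lncRNA regions made up most of the set. Their medians were 46 control and 28 knockout reads, and the median log2 ratio over the 921 with a ratio was 0.01 (-0.03 to 0.04, SD 0.51), with 465 above 1. The interval lay above 1 for 65 (7.06%) and below 1 for 82 (8.90%), beside 7.46% and 8.52% over all shared regions. A ratio of at least 2 was found for 35 (3.8%, beside 2.4% over all) and of 0.5 or less for 25 (2.71%, beside 2.0%). In the range of 60 to 250 control reads, which favours low ratios, the 318 lncRNA regions had a median log2 ratio of -0.13 with 110 above 1. There 16 intervals lay above 1 (5.03%) and 63 below (19.8%). Over all 7203 shared regions in that range the median was -0.09, with 5.76% of intervals above and 14.3% below. At the 3982 coding ends it was -0.05, with 6.48% and 9.84%. Inside genes 3.26% lay above and 24.8% below, and in intergenic regions 4.4% and 24.4%. Only 32.6% of the summits of all 922 lncRNA regions were within 200 bp of the gene's end, against 76.3% for tRNA regions. A coding span was overlapped by 39.2% of the lncRNA regions. Of the 922, 710 were at genes with a RefSeq start window, and 422 of these touched the window. The other 288 did not. Regions that touched the start window were higher (median 58 control reads) than those away from it (37), with median log2 ratios of 0.02 and -0.03.

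The highest lncRNA region with a ratio was at 2700012I20Rik (chromosome 9, 57075366 to 57077062), with 817 control and 623 knockout reads and a ratio of 1.19 (1.07 to 1.32). Mir22hg, the host transcript of miR-22, followed with 795 and 536 reads (chromosome 11, 75460574 to 75461839; 1.05, 0.942 to 1.18). D130051D11Rik on chromosome 15 had 708 and 477 reads (1.05, 0.935 to 1.18) and LOC115487798, within Tex14 on chromosome 11, had 691 and 420 (0.949, 0.839 to 1.07). Among these 4, the interval of 2700012I20Rik alone left out 1. A pair of well-covered regions below 1 were noticed after their values were seen. At Chaserr, a lncRNA gene beside Chd2 (chromosome 7, 73558300 to 73559152), the reads were 593 and 299 and the ratio was 0.787 (0.683 to 0.906), while the deposited fold over local background was 16.2 in control and 16.6 in knockout. At 1700063H04Rik (chromosome 6, 122393372 to 122394703) they were 481 and 155 and the ratio was 0.503 (0.417 to 0.604), with deposited folds of 12.4 and 11.5. The deposited fold divides a summit by the local background of its own library, which can itself differ between the libraries. It therefore cannot show whether the summits at Chaserr and 1700063H04Rik were lower in the knockout.

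Of the 8 lowest ratios with an interval that left out 1, all but that of Mir153 were at lncRNA genes. The lowest was at Gm46659 (chromosome 19, 32475686 to 32477046), with 83 control and 14 knockout reads and a ratio of 0.263 (0.138 to 0.467). Gm43380, within Rnf216, had 55 and 13 reads (0.369, 0.185 to 0.684), and Gm36459 had 93 and 22 (0.369, 0.221 to 0.593). A730036I17Rik had 42 and 10 reads (0.372) and Gm30292 25 and 6 (0.375). Next came Mir153 and then Gm52732, within Col15a1, with 97 and 25 reads (0.402, 0.248 to 0.630). Gm34948 (chromosome 2, 103895823 to 103897111), 60792 bp from Lmo2, a partner of blood transcription factors, had 124 and 32 reads and a ratio of 0.403 (0.264 to 0.599). The region at Gm34948 holds the start window printed above. Over the 29 regions at or below 0.5 the median distance from summit to gene end was 940 bp, against 334.5 bp over all 1256, and 15 of the 29 overlapped a coding span.

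The highest ratios came from low control peaks. Mx2 (chromosome 16, 97535756 to 97536352), an interferon-induced gene that RefSeq types as a transcribed pseudogene, had 8 control and 17 knockout reads and a ratio of 3.32 (1.36 to 8.88). AI839979 had 11 and 20 reads (2.84, 1.30 to 6.56) and Gm35456 14 and 24 (2.68, 1.33 to 5.6). Gm44040 and Gm40634 each had 10 and 17 reads (2.65, 1.15 to 6.49), and Gm31683 had 14 and 23 (2.57, 1.27 to 5.39). Gm44981, within Slc6a6 on chromosome 6 (91712443 to 91713410), had more reads, 31 and 52, and a ratio of 2.62 (1.65 to 4.23). The lower bounds of the others lay between 1.15 and 1.36.

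Nuclear and imprinted lncRNAs were split. Of 11 listed genes, 6 had member regions, 1 (Tug1) had a shared region that was also at a coding end and 4 (H19, Meg3, Miat and Rian) had no region at an end. Malat1, an abundant RNA of nuclear speckles (chromosome 19, 5802113 to 5804074), had 343 control and 182 knockout reads (0.829, 0.688 to 0.995) in one region and 83 and 45 (0.847, 0.576 to 1.23) in a second. Its neighbour Neat1, the scaffold of paraspeckles, had 182 and 86 reads (0.738, 0.564 to 0.959). Kcnq1ot1, the antisense RNA that silences neighbours on the paternal chromosome (chromosome 7, 143295752 to 143296806), had 172 and 80 reads (0.726, 0.550 to 0.952). All 3 intervals of these higher regions lay below 1. Norad, an RNA that binds Pumilio proteins, had 23 and 33 reads (2.24, 1.28 to 4.0), and Tug1 had 251 and 202 (1.26, 1.04 to 1.52). Airn, the imprinted antisense of Igf2r, had 34 and 26 reads (1.19, 0.688 to 2.05) and Peg13, imprinted within Trappc9, had 97 and 64 (1.03, 0.739 to 1.43). Of the 7 member regions, 3 intervals lay below 1 (42.9%, beside 8.52% over all shared regions) and 1 above (14.3%, beside 7.46%), and their median log2 ratio was -0.24.

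Hosts of snoRNAs were mostly even. Of 22 listed genes, 15 had member regions and 5 others had a shared region only at a coding end as well. A further 1 (Snhg11) had a region in the control list only, and 1 (Snhg14) had none. Of the 5, Snhg1 had 379 control and 194 knockout reads (0.799, 0.669 to 0.953). The intervals of Epb41l4aos, Snhg6, Snhg10 and Snhg18 held 1. The 17 member regions had medians of 92 control and 59 knockout reads and a median log2 ratio of -0.01 (SD 0.26). The interval lay above 1 for 0 (beside 7.46% over all shared regions) and below 1 for 1 (5.88%, beside 8.52%). Snhg8 had 414 and 264 reads (0.996, 0.850 to 1.16), and Snhg5 had 352 and 240 (1.06, 0.900 to 1.26). Gas5, a host whose RNA accumulates in arrested cells, had 343 and 212 reads (0.965, 0.809 to 1.15). The member region with an interval below 1 was at Snhg3 (chromosome 4, 132353347 to 132353951), with 124 and 52 reads (0.655, 0.464 to 0.912). A second region of Snhg3 had 79 and 58 (1.15, 0.803 to 1.63). Dancr, an RNA linked to undifferentiated progenitors, had 185 and 94 reads (0.794, 0.612 to 1.02). Snhg9, within Rps2, had 233 and 144 reads (0.965, 0.779 to 1.19), Snhg16 192 and 116 (0.944, 0.743 to 1.19) and Snhg15 139 and 99 (1.11, 0.851 to 1.45). Fewer reads stood at Snhg12 (92 and 60), Zfas1 (83 and 55), Snhg17 (75 and 59), Snhg7 (70 and 36), Snhg4 (68 and 39), Snhg7os (57 and 41) and Snhg20 (40 and 20), with ratios from 0.781 to 1.23. The intervals of all these smaller regions held 1.

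Few hosts of microRNAs were members. Of 17 listed genes, 4 had member regions, 1 (Mir155hg) was in the knockout list only with 7 reads, 1 (Mir205hg) in the control list only with 7, and 11 had no region at an end. Beside Mir22hg, Dleu2, the host of miR-15a and miR-16-1, had 270 control and 153 knockout reads (0.885, 0.721 to 1.08). Pvt1, 47107 bp from Myc by the distance to the nearest coding gene end, had 36 and 18 reads (0.781, 0.417 to 1.41), and Mirc35hg had 22 and 19 (1.35, 0.690 to 2.61). None of the 4 intervals left out 1. Of the 7 listed Hox cluster RNAs, 0 had a member region and Hotairm1 alone had a region, in the control list, with 15 reads.

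**Figure D5:**
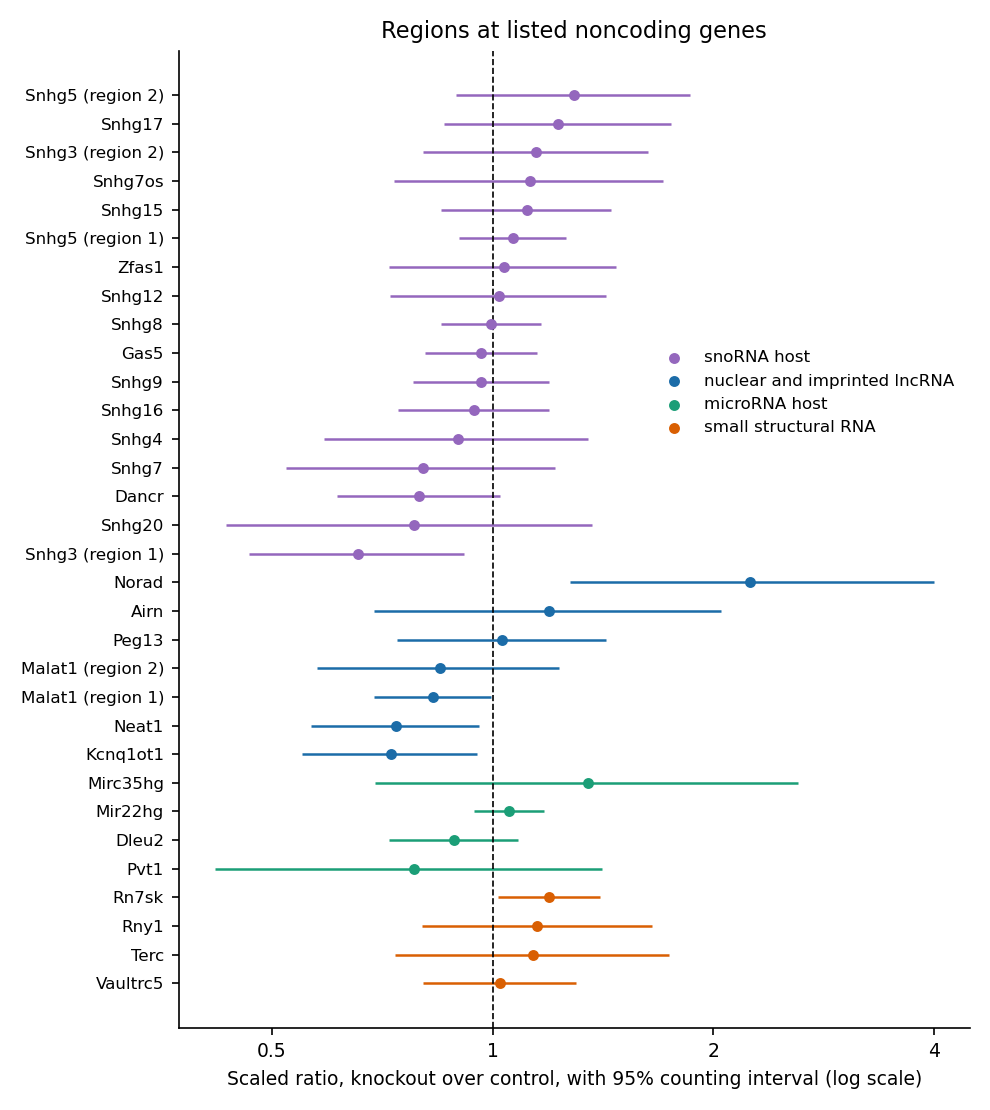
Scaled ratio with its 95% counting interval (log scale) for every member region at a listed snoRNA host, nuclear or imprinted lncRNA, microRNA host or small structural RNA gene. Regions that were also at a coding end are not drawn, and genes with more than 1 region are numbered. Intervals of Neat1, Kcnq1ot1, 1 Malat1 region and 1 Snhg3 region lie below the dashed line at 1, and those of Norad and Rn7sk lie above it.

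Genes whose symbol ends in os or as, the endings for opposite-strand and antisense transcripts, had 19 member regions with 12 ratios above 1. The interval lay above 1 for 3 (15.8%, beside 7.46% over all shared regions) and below 1 for 1 (5.26%, beside 8.52%). The highest was Hk1os, within the hexokinase gene Hk1 (chromosome 10, 62339793 to 62340748), with 353 control and 297 knockout reads and a ratio of 1.31 (1.12 to 1.54). Sox6os, within Sox6, which encodes a factor of red cell maturation, had 20 and 25 reads (1.95, 1.04 to 3.71) in one region and 20 and 23 (1.80, 0.943 to 3.45) in another. Slc36a1os had 12 and 19 reads (2.47, 1.14 to 5.59). The 2 regions of Zfp652os went opposite ways, with 95 and 81 reads (1.33, 0.978 to 1.81) in one and 82 and 28 (0.533, 0.334 to 0.828) in the other. Among the others, Rab10os had 184 and 138 reads (1.17, 0.932 to 1.47), Tnk2os 124 and 76 (0.957, 0.710 to 1.28) and Smc2os 80 and 43 (0.839, 0.566 to 1.23). Fbxl12os (55 and 44 reads), Zfp286os (67 and 54), Prox1os (23 and 22), Fgf2os (20 and 13) and Igf2os (8 and 6) had ratios above 1, and Irx3os (40 and 18), Frmpd1os (34 and 17) and Asb17os (22 and 12) had ratios below 1. None of these 11 intervals left out 1. ATAC-seq reads carry no strand, so the signal belongs to the region and not to either of the overlapping genes. Of the 2 genes typed as antisense RNA, Gnasas1, at the imprinted Gnas gene, had 170 and 88 reads (0.808, 0.618 to 1.05) and Dlx1as had 30 and 12 (0.625, 0.291 to 1.26).

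The start windows of lncRNA genes inside these regions had a base composition between that of coding genes and that of lncRNA genes at large. For 312 regions a window lay wholly inside. Its median G+C content was 56.7%, against 62.7% for 4582 windows in shared coding-end regions and 48.3% for all 11311 autosomal lncRNA windows of the table. The CpG observed over expected ratio, which is near or above 0.6 in CpG islands, had medians of 0.594, 0.816 and 0.246 in the 3 sets. It exceeded 0.6 in 48.7%, 85.9% and 14.1% of windows. Among the 312, CpG-rich windows lay in higher regions (152 windows, median 104 control reads) than the others (160 windows, median 50), with median log2 ratios of 0.04 and -0.02.

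Motifs were searched on both strands of the windows, as letters only. The shares that follow are for the 312 lncRNA windows, the 4582 coding windows and all 31396 windows of 300 bases. GGGCGG, which Sp and Krüppel-like factors bind, was in 44.9%, 72.6% and 36.0%. CCAAT, bound by NF-Y, was in 34.0%, 41.3% and 37.3%, and CCGGAAG, bound by ETS factors, in 9.94%, 22.6% and 9.0%. ATGGCG, bound by YY1, was in 8.97%, 18.4% and 8.98%, and TGACGTCA, the cyclic AMP response element, in 0.962%, 4.15% and 1.83%. These 5 had lower shares in the lncRNA windows than in the coding ones. AGATAA, which GATA factors bind, was in 13.5%, 5.09% and 11.2%, and TGTGGT, bound by RUNX factors, in 19.9%, 11.2% and 16.7%. TATAAA, the TATA box, was in 8.97%, 5.30% and 13.6%, and TGANTCA, bound by AP-1 factors, in 6.73%, 3.78% and 7.84%. Those 4 had higher shares in the 312 lncRNA windows than in the coding ones, but not than in all 11311 autosomal lncRNA windows. There AGATAA was in 14%, TGTGGT in 20.1%, TATAAA in 15.2% and TGANTCA in 9.25%. Of the first 5 motifs, GGGCGG was in 16.3% of all lncRNA windows, CCGGAAG in 3.91% and ATGGCG in 5.41%, below the shares in the 312. CCAAT was in 35.8% and TGACGTCA in 0.99%, slightly above them. The core of the CTCF motif was in 2.88%, 0.808% and 0.666%, the NRF1 motif in 1.28%, 2.58% and 0.968%, and the B box of tRNA genes in 0.641%, 0.153% and 0.127%. No overlap between the motifs was removed.

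The 42 lncRNA windows with AGATAA lay in regions with a median log2 ratio of -0.19, 26 of them below 1, and the 270 without it had a median of 0.04, 121 of them below 1. Median control reads were alike, 70.5 with the motif and 70 without. At coding ends the medians were -0.03 with it and 0.01 without. The 140 windows with GGGCGG lay in regions with a median of 0.08 (108 control reads) and the 172 without it -0.06 (57 control reads). Of the other motifs found in at least 30 windows, the median was -0.05 with CCGGAAG and 0.03 without it, 0.01 with CCAAT and 0.04 without, and 0.05 with TGTGGT and 0.02 without. A match is a run of letters in a window and was not tied to binding.

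Regions at microRNA genes had medians of 58.5 control and 29 knockout reads, and the control summit was at a median of 698.5 bp from the gene's end. Of the 38, 25 overlapped a coding span. The median log2 ratio was 0.06 (-0.16 to 0.13), with 4 intervals above 1 (10.5%) and 2 below (5.26%), beside 7.46% and 8.52% over all shared regions. The highest was at Mir6546 (chromosome 1, 171064292 to 171064867), with 451 control and 356 knockout reads and a ratio of 1.23 (1.07 to 1.42), and this region also lies within 1 kb of 3 tRNA genes. Mir5620, within Clcn4, had 414 and 300 reads (1.13, 0.972 to 1.32). Mir210, a microRNA induced by low oxygen, had 397 and 227 (0.893, 0.755 to 1.05). The other intervals above 1 were at Mir7240, within Mast3, with 392 and 310 reads (1.24, 1.06 to 1.44), at Mir1893, within Epc1, with 233 and 186 (1.25, 1.02 to 1.52), and at Mir3100, within Dmpk, with 23 and 28 (1.90, 1.06 to 3.46).

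The lowest microRNA region was at Mir153, within Ptprn2 (chromosome 12, 117251773 to 117252775), with 85 control and 21 knockout reads and a ratio of 0.386 (0.227 to 0.628). Mir7655, within Mllt10, had 253 and 114 reads (0.704, 0.559 to 0.881). The Mir153 summit was 1570 bp from the gene's end and the Mir7655 summit 877 bp, so neither summit lay over the hairpin. Mir17, the first of the miR-17 cluster that acts in blood cell growth, had 84 and 59 reads (1.10, 0.773 to 1.55). Mirlet7i, of the let-7 family that marks the adult programme, had 62 and 38 (0.957, 0.622 to 1.46), and Mir148a had 104 and 73 (1.10, 0.801 to 1.49). Mir212 had 143 and 78 reads (0.852, 0.638 to 1.13) and Mir425, within Dalrd3, 142 and 74 (0.814, 0.606 to 1.09). The intervals of these 5 all held 1.

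Regions at pseudogenes were low and even between the genotypes. The 91 regions at genes typed as pseudogene had medians of 38 control and 25 knockout reads and a median log2 ratio of -0.08 over 90, with 6 intervals above 1 and 6 below (6.67% each, beside 7.46% and 8.52% over all shared regions). The 31 at transcribed pseudogenes had 39 and 27 reads and a median of 0.06, with 2 above and 1 below. The highest with a ratio was Gm15488 (chromosome 13, 111725018 to 111726063), with 761 and 496 reads and a ratio of 1.02 (0.907 to 1.14), although its summit was 1249 bp from the pseudogene. Gm31532, within Sgo1, had 359 and 202 reads (0.879, 0.736 to 1.05). Pisd-ps2 had 206 and 137 (1.04, 0.831 to 1.30), Magef1 161 and 99 (0.960, 0.740 to 1.24) and Pisd-ps1 150 and 123 (1.28, 1.0 to 1.64). Pseudogenes resemble their parent genes, so reads of the parent may be placed in them, which was not tested.

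The small remaining types had few regions. At the 7 snoRNA genes the median log2 ratio was 0.53 on medians of 27 and 27 reads, with ratios from 0.752 to 1.85 and 1 interval above 1, at LOC115487912 (23 and 27 reads, 1.83, 1.01 to 3.35). LOC115488421 had 110 and 59 reads (0.838, 0.6 to 1.16), Snord58b, within Rpl17, 86 and 54 (0.981, 0.684 to 1.39) and LOC115488948 29 and 27 (1.45, 0.828 to 2.54). The 6 T-cell receptor V segments had a median of -0.38 with 1 ratio above 1. Trgv7, of the gamma chain locus (chromosome 13, 19177754 to 19178828), had 207 and 100 reads and a ratio of 0.754 (0.588 to 0.962), Trbv12-2 had 64 and 29 (0.708, 0.440 to 1.11) and Trav13d-4 had 37 and 20 (0.844, 0.464 to 1.49). The region at Tcrb, the beta chain locus, had 58 and 29 reads (0.781, 0.482 to 1.24). Among the 6 genes of miscellaneous RNA, Gm4633, within Cd47, had the most reads, 269 and 159 (0.923, 0.754 to 1.13), followed by 6030426L16Rik with 71 and 38 (0.836, 0.548 to 1.26) and 3110053B16Rik with 49 and 39 (1.24, 0.795 to 1.93).

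The limit of 1 kb put some like regions on either side. Just inside it lay regions 1000 bp from 4930594C11Rik (26 control and 22 knockout reads) and from Gm36459 (93 and 22), and 998 bp from 4933440J02Rik (48 and 29). Just outside it lay regions 1003 bp from Gm39361 (30 and 20), Gm13872 (79 and 34) and Gm51932 (34 and 28). On the coding side, the region of 2900052L18Rik (59 and 44 reads) was 1022 bp from an end of Bahcc1, that of 9430083M05Rik (151 and 136) 1024 bp from Rpl22 and that of Mir1668 (28 and 20) 1026 bp from Adgre5. Those left out by the least were at Gm30144 (78 and 67 reads), 999 bp from Mrgbp, at A930029G22Rik (33 and 21), 996 bp from Akain1, and at Gm15498 (101 and 52), 974 bp from Agfg2.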

How the data were processed

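Chromatin accessibility was measured by ATAC-seq in 1 control and 1 Brd9 knockout library. Per the submitters' processing notes, the tools were MACS2 2.2.7.1, Bowtie2 2.4.4, Trimmomatic 0.39, deepTools 3.5.1 and Picard 2.26.2, with mm10. Roles, settings and the handling of multi-mapping reads and duplicates: not given in the sources used here. Each deposited peak list belongs to 1 library. The deposited values are a fold (the ratio of summit pileup to local background, each with a pseudocount of 1), a −log10 p-value and a −log10 q-value, and a score of 10 times the −log10 q, which was not used. No peak had a deposited −log10 q under 1.31 (control) or 1.32 (knockout).

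Summit reads were recovered as the whole number that reproduced a peak's deposited fold and −log10 p, for 100% of peaks with a relative misfit of at most 7.31e-06, after the recovery had been tested on simulated data. The depth ratio of 0.64 is that of the lowest backgrounds (4000 control and 3013 knockout peaks), assuming that reads were extended alike. Total reads are not in the sources used here, so absolute depth is unknown. Where a region held several peaks of a list, the highest summit was used. The reads carry no molecular identifiers and may repeat a molecule, so all intervals cover counting error only. Regions with over 3000 reads got no ratio.

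Gene ends, types and start windows came from RefSeq tables of GRCm38.p6, which give no strand or exons for gene ends. Members were named by these rules: the 8 with the most control reads, the 8 highest and 8 lowest ratios with an interval that left out 1, the top 3 by control reads of each type, every member at a listed gene, and those nearest to the 1 kb limits. The members and lists were chosen with earlier results of these data known, and others named were picked after their values were seen. Tools were SciPy 1.17.1, pandas 2.3.3 and NumPy 2.4.6 under Python 3.11.15, with plots by matplotlib 3.10.9. Alternatives covered the distance to gene ends, a stricter −log10 q, a 50% reciprocal overlap, another scaling, summed summits, a read minimum, coding spans and pseudogenes.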

Additional observations from a re-analysis of the deposited data

How the results depend on the processing

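With 1 library per genotype no replicate could be left out. No paired analysis was possible because the libraries share no replicate number. Of the alternatives, moving the gene-end limit to 500 bp left 17 regions at a ratio of 0.5 or less in place of 29, and moving it to 2.5 kb gave 48, with a median of 44 control reads in place of 51. Keeping only peaks at a −log10 q of 5 or more gave a median of 60.5 control reads. Requiring 40 reads in both lists together gave a median of 70 control reads, a median log2 ratio of 0.0038 in place of 0.0378 and 17 regions at a ratio of 2 or more in place of 43. Leaving out regions in coding spans left 819 of the 1256 regions, with 14 at 0.5 or less. Among alternatives chosen after seeing the data, leaving out tRNA regions gave a median log2 ratio of 0.0012 over the others, and keeping tRNA regions near 1 noncoding gene only gave 22.7% with an interval above 1 in place of 32.5%. All alternatives for tRNA regions were chosen after seeing the data. Over the 12 run, their median log2 ratio lay between 0.26 and 0.30 and their share with a ratio above 1 between 86.4% and 92.7%. The causes of these shifts were not tested beyond what each setting removes. Scaling to the median of coding ends moved all log2 ratios by -0.01. Depth limits low peaks: the interval at Mx2, with 8 control and 17 knockout reads, ran from 1.36 to 8.88, and that at Mir22hg, with 795 and 536, from 0.942 to 1.18.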
